A study of Mus musculus with 19 samples.

Results

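The diet response that the ventral (VP) and the dorsolateral prostate (DLP) of the mouse had in common was measured as the mean of 2 differences, high fat diet (HFD) minus control in VP and in DLP. All 19 arrays of the series entered, and their titles put 5 in each of the groups control VP, HFD VP and control DLP and 4 in HFD DLP, which makes 4 groups. Every group came from C57BL/6J mice without any transgene or deletion named in the labels, aged 8 weeks when the diets began and sampled after 12 weeks on them. Total RNA of whole lobes was hybridised, 1 sample per array. No source used here states what either diet contained. There were 5 mice on each diet, per the labels, and arrays are not tied to mice, so the arrays of both lobes were treated as independent samples although they cannot all be different mice, and the p-values measure the spread between these arrays.

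The prostate lobes are glands whose luminal cells secrete into the seminal fluid and are wrapped in smooth muscle, and the lobes differ in the secretory proteins they make. Dietary fat and cholesterol reach gene expression through several known routes. Liver X receptors (LXR) sense oxidised sterols and switch on genes of sterol export and Srebf1, which encodes SREBP-1, the activator of fatty acid synthesis. SREBP-2 switches on cholesterol synthesis when sterols are scarce. Feeding also sets the phase of the circadian clock in peripheral organs, and peroxides of lipids are cleared by glutathione peroxidases such as Gpx3.

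Values are given as log2 levels and a difference as HFD minus control on the log2 scale, with the standard error (SE) of the fit. All 19 arrays held the same set of values in different order, so that a change of most genes in 1 direction would not be seen. Of 45101 probe sets, 24867 lay above the median of their own array on at least 4 arrays and were tested with limma, with Benjamini-Hochberg adjustment over all of them. The lobe labels fitted the markers: Tgm4, a dorsolateral secretory transglutaminase, lay at 1.36 to 2.37 on VP arrays and at 12.31 to 12.73 on DLP arrays, and the prostate and luminal genes Hoxb13, Pbsn, Krt8 and Krt18 exceeded the median of every array. A few arrays held transcripts of the seminal vesicle, the gland beside the prostate. Svs4, one of its abundant secretory proteins, lay at 5.76 on HFD VP 2, 4.20 on HFD DLP 1, 2.44 on control DLP 3 and 1.94 on HFD VP 1, and at 0.92 or less on the others, while Svs2 was above the median on 0 arrays. The median SD of a probe set was 0.181 in control VP, 0.174 in HFD VP, 0.145 in control DLP and 0.126 in HFD DLP. Since whole lobes were measured, fewer cells of a type and less RNA per cell cannot be told apart.

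Few probe sets were called in the average of both lobes, and how many depended on the arrays and settings used. The average of both lobes passed limma's adjusted p of 0.05 for 11 probe sets of 11 genes, 0.0442% of those tested. The 4 that rose (0.0161%) were Xpa, Srebf1, Ces1d and Mylip, and the 7 that fell (0.0281%) were Gpx3, Ier3ip1, Vps37a, Pkig, Ncaph, Dbi and Tnpo1. Only Gpx3 of these 11 changed by more than 2-fold. All 11 had the same sign in both lobes, which is partly fixed by choosing them on the average. In VP alone 10 of the 11 passed the adjusted threshold, Dbi being the exception, as did 224 probe sets in all (0.901%). In DLP alone no probe set passed, the smallest adjusted p being 0.12. An unadjusted p under 0.05 in DLP was found for 6 of the 11, and for 1350 probe sets in all (5.43%). Without HFD VP 2 and HFD DLP 1, the arrays with the most Svs4 in their lobes, 7 probe sets were called. The number called ranged from 2 without HFD DLP 3 to 22 without control VP 1, with 5 without HFD DLP 4, 7 without control DLP 2 and 7 without control DLP 4, as the plot of calls without each array shows. It was also over 1.5 times the full count without control VP 2 or 3 (20 each), HFD VP 1 or 3 (17 each) and HFD VP 4 (19).

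**Figure D1:**
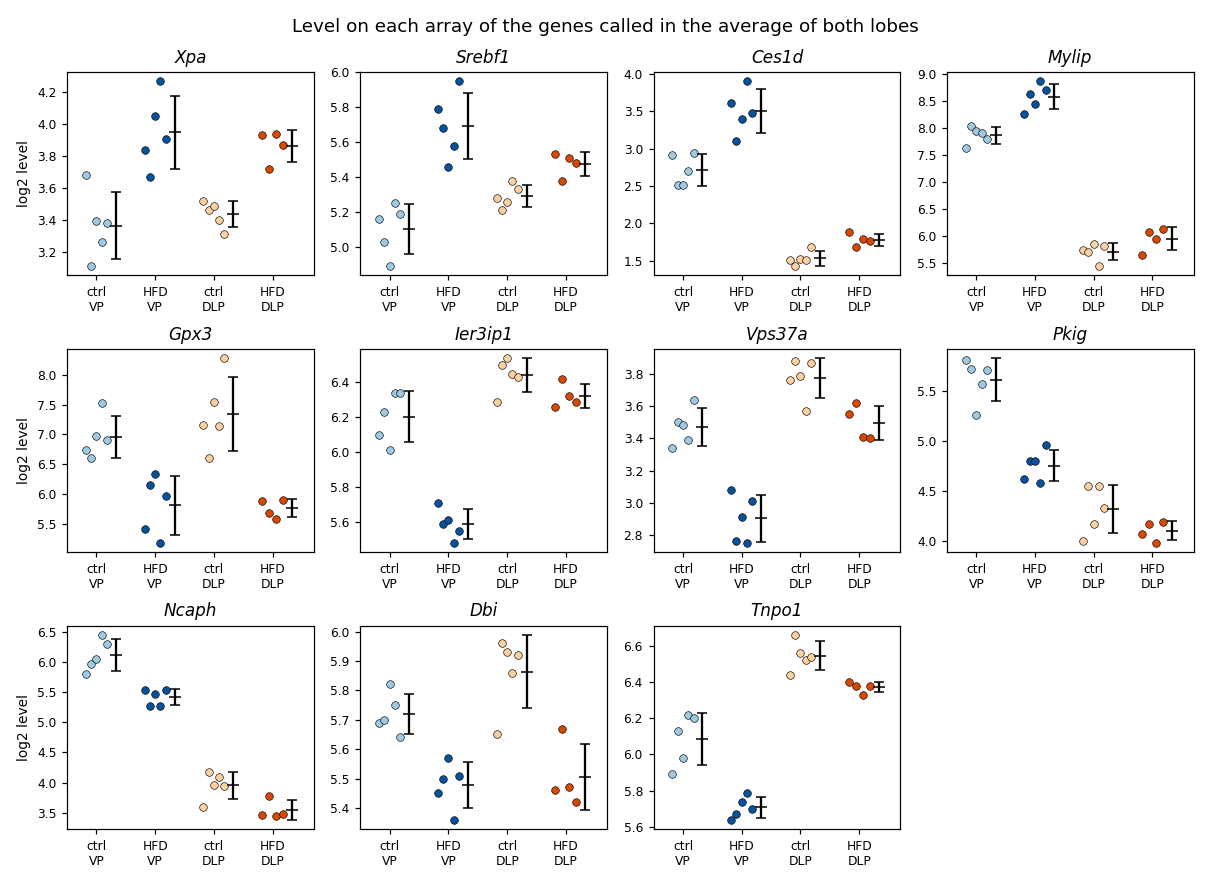
Log2 level of the 11 called genes on each of the 19 arrays, 1 panel per gene, with points for arrays and a black mark and bar for the group mean and SD (n = 5, 5, 5 and 4). The 4 genes of the top row lie higher on HFD in both lobes and the other 7 lie lower. The axes do not start at 0 and differ between panels.

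**Figure D2:**
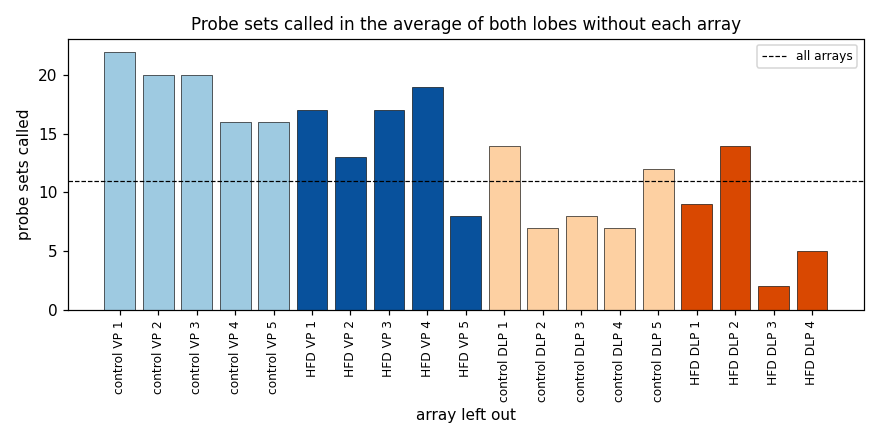
Number of probe sets called in the average of both lobes (limma, adjusted p under 0.05) after leaving out each array in turn, with the count over all arrays, 11, as a dashed line. The bars run from 2 without HFD DLP 3 to 22 without control VP 1.

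Over the whole array, the lobes shared the sign of the diet difference for 13319 of 24867 probe sets, or 53.6%. The share was 59.4% among probe sets with an unadjusted p under 0.05 in VP, 60.4% under 0.01 and 63.9% under 0.001. From the DLP side it was 59.1%, 63.3% and 68.4%. Across probe sets, which share arrays and are not independent, the differences of the lobes correlated weakly (Pearson 0.16, Spearman 0.12). The median size of the difference was 0.104 in VP, 0.082 in DLP and 0.071 in their average. An unadjusted p under 0.05 in the average was found for 2864 probe sets (11.5%), 1491 of them higher (6%) and 1373 lower (5.52%) on HFD. These shares are the background for the counts of list members below.

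**Figure D3:**
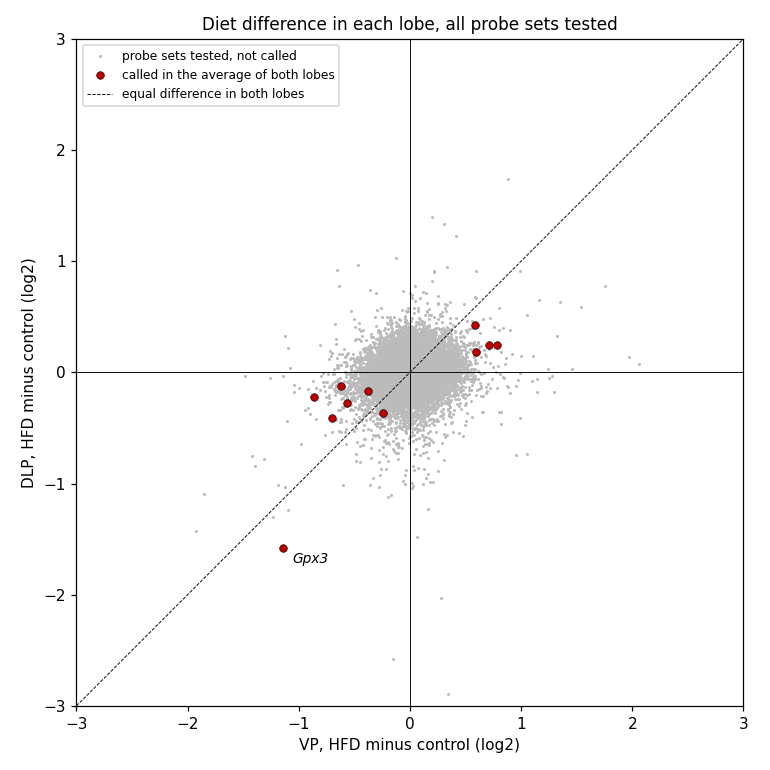
HFD minus control difference (log2) in VP on the x axis and in DLP on the y axis for all 24867 probe sets tested, as grey points, with the 11 called in the average of both lobes in red. The red points lie at the lower left and upper right of the origin, and Gpx3, at -1.14 and -1.58, lies apart from the other 10.

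Gpx3, the secreted selenium-dependent glutathione peroxidase named in the title of the study, had the largest fall of the called genes. In VP, Gpx3 lay at 6.74, 6.61, 6.97, 7.53 and 6.90 on control arrays 1 to 5 and at 5.41, 6.15, 6.34, 5.18 and 5.96 on HFD arrays 1 to 5. In DLP it lay at 7.16, 6.60, 7.55, 7.14 and 8.28 on control arrays and at 5.89, 5.69, 5.58 and 5.90 on HFD arrays 1 to 4. Each control array was above each HFD array of its lobe, by a wide gap in DLP between the lowest control and the highest HFD array. The average difference was -1.36 (SE 0.183, 95% interval -1.74 to -0.98), so that Gpx3 was 2.57-fold lower on HFD, with limma's adjusted p of 0.0084. An exact permutation test of the diet labels within lobes gave p = 6.3e-05 over 31752 regroupings, and one that took each replicate number as a mouse gave p = 0.0079, the smallest its 252 regroupings allow. Neither is independent of the title, which singles out this gene. The call held without any single array, at adjusted p between 0.0016 and 0.042. The diet differences of the lobes were -1.14 in VP and -1.58 in DLP, and the difference between them had an adjusted p of 0.8.

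Fat tissue also makes Gpx3, and markers of adipocytes were therefore read beside it. Of 10 adipocyte markers 3 passed the filter on low values, Car3, Fabp4 and Lpl. Adipoq, the hormone that defines adipocytes, lay at 0.91 to 1.91 and exceeded the array median only once in 19 arrays, and Lep on 0. Car3, a carbonic anhydrase abundant in fat and muscle, lay at 2.71, 2.75, 2.47, 3.79 and 2.21 on control VP arrays and at 1.46, 1.47, 1.55, 1.51 and 1.99 on HFD VP arrays. In DLP it lay at 3.18, 2.14, 2.01, 4.05 and 2.34 on control and at 2.18, 1.71, 1.69 and 1.34 on HFD arrays. Car3 was thus highest on control VP 4 and control DLP 4, the arrays that also had the most Adipoq. Its average difference was -1.10 (SE 0.233), with limma's adjusted p of 0.078, while Fabp4 had -0.23 in VP and 0.013 in DLP. Car3 exceeded the array median of 1.85 on 12 arrays, all control arrays and HFD VP 5 and HFD DLP 1. It thus passed the filter mainly through the control arrays, where it was highest, and lay below the median on the other HFD arrays. The mean of the 3 markers, centred over all arrays, ran from -0.22 to 0.75 in control VP, -0.62 to 0.08 in HFD VP, -0.29 to 1.01 in control DLP and -0.16 to 0.02 in HFD DLP. Their part in the Gpx3 result was not tested. Without control VP 4 the Gpx3 difference was -1.29 (adjusted p 0.017), and without control DLP 4 it was -1.39 (adjusted p 0.0092).

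Among the other glutathione peroxidases no gene was called. Of 8 genes of the family 6 were tested. Gpx1, the cytosolic enzyme, had an average difference of 0.15 (SE 0.047, unadjusted p 0.0053, adjusted p 0.22), and Gpx4, which reduces lipid peroxides in membranes, had 0.12 (SE 0.063, adjusted p 0.48). Gpx2, Gpx7 and Gpx8 had 0.12, 0.058 and -0.073. Among 15 tested antioxidant enzymes outside the family, none was called and 3 were lower at an unadjusted p under 0.05 (5.52% of all probe sets were), the first being Prdx4, a peroxiredoxin of the endoplasmic reticulum (-0.35, SE 0.089, adjusted p 0.13). Of 13 tested NRF2 targets, genes of the oxidative stress response, none was called, and 3 were higher at an unadjusted p under 0.05 (6% of all probe sets were), with Gsta4, a glutathione transferase for lipid aldehydes, at 0.57 (SE 0.147, adjusted p 0.13). Hmox1, another of the 3, had a mean below the array median of 1.85 in every group, from 1.46 to 1.81. No gene of the 13 tested for selenoprotein synthesis and handling had an unadjusted p under 0.05, though with 1 array left out up to 2 did, the 2 being reached without control VP 4 or HFD VP 2.

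Shown are the promoter windows of called genes that held both the GC box GGGCGG and the CCAAT box CCAAT, in capitals, on either strand. The windows shown are thus set by the motifs, and Dbi, also of lipid handling, is not among them. They are the 250 bases before the RefSeq start in GRCm38.p6, for Gpx3 at chr11:54902604-54902853 on the plus strand, for Srebf1 (the start farthest downstream of 3) at chr11:60210472-60210721 on the minus strand, and for Mylip at chr13:45389492-45389741 on the plus strand.
Gpx3: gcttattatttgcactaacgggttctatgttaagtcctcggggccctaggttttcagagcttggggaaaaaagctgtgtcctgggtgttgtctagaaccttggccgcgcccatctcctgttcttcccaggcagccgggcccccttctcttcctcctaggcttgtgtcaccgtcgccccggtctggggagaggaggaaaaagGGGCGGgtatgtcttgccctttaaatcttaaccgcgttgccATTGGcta
Srebf1: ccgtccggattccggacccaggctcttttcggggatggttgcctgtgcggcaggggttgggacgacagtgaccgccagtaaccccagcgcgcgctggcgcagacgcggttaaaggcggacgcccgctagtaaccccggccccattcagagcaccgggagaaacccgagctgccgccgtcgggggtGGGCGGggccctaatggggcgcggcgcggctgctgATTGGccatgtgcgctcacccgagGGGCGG
Mylip: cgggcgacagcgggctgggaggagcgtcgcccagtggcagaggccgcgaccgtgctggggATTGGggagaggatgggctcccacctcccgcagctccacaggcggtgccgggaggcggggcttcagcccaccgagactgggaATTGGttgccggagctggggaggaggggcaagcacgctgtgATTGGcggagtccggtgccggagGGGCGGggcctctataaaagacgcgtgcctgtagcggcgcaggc
RefSeq promoters were at hand for 8 of the 11 called genes. These genes have 14 promoter windows, of which 7 held a GC box, 7 a CCAAT box and 3 both, and the 3 with both are those shown. The motifs were found in 32.7% and 33.8% of 32851 promoter windows of this length. The other windows of Srebf1 held 1 motif kind each, a CCAAT box or GC boxes. Mylip held 3 CCAAT boxes, and the GC box of Gpx3 ended 44 bases before the start. None of the 3 held the E-box CACGTG (6.02% of windows) or the D-box TTATGTAA (0.819%), which says only that these letters are not in the windows.

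Srebf1 and Mylip rose in the average of both lobes, and both are targets of LXR. The control VP arrays gave Srebf1 levels of 5.16, 5.03, 4.89, 5.25 and 5.19, and the HFD VP arrays 5.79, 5.68, 5.46, 5.58 and 5.95. The control DLP arrays gave 5.28, 5.21, 5.26, 5.38 and 5.33, and the HFD DLP arrays 5.53, 5.38, 5.51 and 5.48. No HFD array overlapped the control arrays of its lobe, though the gap in DLP was narrow. The average difference of Srebf1 was 0.39 (SE 0.062, 1.31-fold, adjusted p 0.014). Mylip encodes the ubiquitin ligase that sends the LDL receptor to degradation. Its level was 7.63, 8.03, 7.94, 7.91 and 7.79 on control VP arrays against 8.26, 8.63, 8.43, 8.86 and 8.69 on HFD VP arrays. It was 5.73, 5.70, 5.84, 5.44 and 5.82 on control DLP arrays against 5.65, 6.07, 5.95 and 6.13 on HFD DLP arrays. In VP every HFD array was above every control array, whereas in DLP HFD DLP 1 lay among the control arrays. Mylip had an average difference of 0.48 (SE 0.083, 1.39-fold, adjusted p 0.029). Srebf1 lost its call without HFD DLP 3 or 4 (adjusted p 0.055 to 0.056), and Mylip without HFD VP 2 or 5, control DLP 2 or 4, or HFD DLP 2, 3 or 4 (0.05 to 0.097). The difference was 0.59 in VP and 0.18 in DLP for Srebf1, and 0.71 and 0.25 for Mylip. In DLP alone both had an unadjusted p of 0.056. The difference between lobes had limma's unadjusted p of 0.0035 for Srebf1 and 0.011 for Mylip, and adjusted p of 0.41 and 0.49.

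The LXR target list was read as a whole and without these 2 genes. Of 12 genes listed 9 were tested, 2 were called, and 4 were higher at an unadjusted p under 0.05, against 793 higher and 598 lower of 11728 genes represented by 1 probe set each. The added 2 were Abca1, the cholesterol exporter (0.43, SE 0.107, adjusted p 0.11), and Lpcat3, which remodels phospholipids (0.22, SE 0.086, adjusted p 0.34). The median of the list was 0.40 in VP and 0.13 in DLP, against 0.008 and 0.01 over all genes. In the list 7 of 9 were positive in both lobes, against 3469 of all 11728 genes. Without Srebf1 and Mylip the medians of the 7 genes left were 0.15 and 0.03, and 5 were positive in both lobes. Single arrays also moved the medians of the 9, to 0.17 in VP without HFD VP 3 and to 0.083 and 0.041 in DLP without control DLP 5 and HFD DLP 3. Pltp had -0.13 and Apoe 0.004. Over 17 genes of fatty acid synthesis and SREBP-1 targets the VP median was 0.12 and the DLP median -0.075. The first was 0.043 without control VP 2 and 0.061 without HFD VP 3, and the second -0.027 without control DLP 5. There Scd2 had 0.30 (SE 0.122, adjusted p 0.35), Fasn 0.001 and Acaca -0.038.

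Genes of cholesterol synthesis had negative median differences in both lobes, and none was called. Of 18 tested, 7 were lower at an unadjusted p under 0.05 and 0 were higher, and 13 were negative in both lobes. Over all 11728 genes, 598 were lower, 793 were higher and 2785 were negative in both lobes. The median of the list in VP was -0.093, and that in DLP -0.19. The VP median rested on single arrays, being -0.053 without control VP 2, -0.046 without HFD VP 3 and -0.022 without HFD VP 4, whereas the DLP median stayed between -0.22 and -0.16 with any 1 array left out. The smallest p belonged to Fdps, farnesyl diphosphate synthase, which went from a mean of 4.64 to 4.22 in VP and from 4.79 to 4.14 in DLP (average -0.54, SE 0.12, adjusted p 0.089). Hmgcs1, at the entry of the pathway, had -0.38 (SE 0.106), Fdft1, the squalene synthase, -0.35 (SE 0.097), and Cyp51, the lanosterol demethylase, -0.33 (SE 0.084). Their adjusted p lay between 0.12 and 0.16. Sqle, which makes squalene epoxide, had -0.016 in VP and -0.35 in DLP.

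Ces1d and Xpa also rose. Ces1d encodes a carboxylesterase that hydrolyses stored triglyceride. Ces1d measured 2.91, 2.51, 2.51, 2.70 and 2.94 on control VP arrays and 3.61, 3.10, 3.39, 3.90 and 3.48 on HFD VP arrays. For DLP the values were 1.51, 1.43, 1.52, 1.51 and 1.69 on control and 1.88, 1.69, 1.79 and 1.76 on HFD arrays. The diets did not overlap in VP, and in DLP HFD DLP 2 equalled the highest control array at this rounding. On DLP arrays other than HFD DLP 1 it was below the array median of 1.85. The average difference was 0.51 (SE 0.088, 1.43-fold, adjusted p 0.029), and a further probe set of the gene had 0.38 (SE 0.149, adjusted p 0.32). The call was lost without HFD VP 5, control DLP 2, 3 or 4, or HFD DLP 1, 3 or 4 (adjusted p 0.057 to 0.09). Xpa encodes a protein that verifies damaged DNA in nucleotide excision repair. On control VP arrays the level of Xpa was 3.68, 3.11, 3.39, 3.26 and 3.38, and on HFD VP arrays it was 3.84, 3.67, 4.05, 4.27 and 3.91. On control DLP arrays it was 3.52, 3.46, 3.49, 3.40 and 3.31, and on HFD DLP arrays 3.93, 3.72, 3.94 and 3.87. The diets were apart in DLP, and in VP only control VP 1 and HFD VP 2 crossed. Xpa had an average difference of 0.51 (SE 0.077, 1.42-fold, adjusted p 0.011), which reached 0.053 without HFD DLP 3. Its other tested probe set had -0.079 (SE 0.114), so that the rise was not seen on it. That probe set had a mean level of 1.74, below the array median, against 3.64 for the called one.

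Ier3ip1 and Vps37a, both of membrane traffic, fell in the average of both lobes. Ier3ip1 encodes a small protein of the endoplasmic reticulum. In VP, Ier3ip1 lay at 6.10, 6.23, 6.01, 6.34 and 6.34 on control arrays 1 to 5 and at 5.71, 5.59, 5.61, 5.48 and 5.55 on HFD arrays 1 to 5. In DLP it lay at 6.29, 6.50, 6.54, 6.45 and 6.43 on control arrays and at 6.26, 6.42, 6.32 and 6.29 on HFD arrays 1 to 4. In VP the diets were far apart, and in DLP 3 of the 4 HFD arrays were at or above the lowest control array. Its average difference was -0.37 (SE 0.053, 1.29-fold lower, adjusted p 0.011), of which VP gave -0.62 and DLP -0.12. The second probe set had -0.086 (SE 0.058, adjusted p 0.6). Vps37a encodes a subunit of ESCRT-I, which sorts ubiquitinated cargo in endosomes. The control VP arrays gave Vps37a levels of 3.34, 3.50, 3.48, 3.39 and 3.64, and the HFD VP arrays 3.08, 2.76, 2.91, 2.75 and 3.01. The control DLP arrays gave 3.76, 3.88, 3.79, 3.57 and 3.87, and the HFD DLP arrays 3.55, 3.62, 3.41 and 3.40. HFD arrays lay below all control arrays in VP, and in DLP HFD DLP 2 was above control DLP 4. The average difference was -0.42 (SE 0.063, 1.34-fold lower, adjusted p 0.011). It reached 0.053 without HFD DLP 3. The 2 other probe sets of Vps37a had 0.038 (SE 0.047) and 0.20 (SE 0.057), so the direction of the gene depends on the probe set, and the mean of the 3 was -0.061 (adjusted p 0.53).

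Pkig and Dbi, which act in signalling and lipid handling, fell as well. Pkig encodes an inhibitor of the cAMP-dependent protein kinase. Its level was 5.81, 5.72, 5.26, 5.57 and 5.71 on control VP arrays against 4.62, 4.80, 4.80, 4.58 and 4.96 on HFD VP arrays. It was 4.00, 4.55, 4.17, 4.55 and 4.33 on control DLP arrays against 4.07, 4.17, 3.98 and 4.19 on HFD DLP arrays. The diets were apart in VP only, and control DLP 1 was below all but 1 of the HFD DLP arrays. The average difference was -0.54 (SE 0.083, 1.45-fold lower, adjusted p 0.011), and a further probe set had -0.30 (SE 0.073, adjusted p 0.11). Without HFD DLP 3 the adjusted p was 0.053. Dbi encodes the acyl-CoA binding protein, a carrier of activated fatty acids. Dbi measured 5.69, 5.70, 5.82, 5.75 and 5.64 on control VP arrays and 5.45, 5.50, 5.57, 5.36 and 5.51 on HFD VP arrays. For DLP the values were 5.65, 5.96, 5.93, 5.86 and 5.92 on control and 5.46, 5.67, 5.47 and 5.42 on HFD arrays. All HFD VP arrays were below all control VP arrays, and in DLP only HFD DLP 2 reached the lowest control array. Dbi had an average difference of -0.30 (SE 0.052, 1.23-fold lower, adjusted p 0.029), larger in size in DLP (-0.36) than in VP (-0.24), without a detected difference between lobes (adjusted p 0.81). Its 3 other probe sets had -0.048, -0.16 and -0.50. The call was lost without HFD VP 2 or 5, control DLP 2, 3, 4 or 5, or HFD DLP 1, 3 or 4 (adjusted p 0.05 to 0.093).

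Ncaph and Tnpo1 complete the genes that fell. Ncaph encodes a subunit of condensin, which compacts mitotic chromosomes. On control VP arrays the level of Ncaph was 5.80, 5.97, 6.06, 6.46 and 6.31, and on HFD VP arrays it was 5.54, 5.28, 5.47, 5.27 and 5.54. On control DLP arrays it was 3.59, 4.18, 3.96, 4.10 and 3.95, and on HFD DLP arrays 3.46, 3.78, 3.44 and 3.48. The diets did not overlap in VP, and in DLP control DLP 1 was below HFD DLP 2. The average difference was -0.56 (SE 0.089, 1.47-fold lower, adjusted p 0.014), and the other probe set had -0.31 (SE 0.072, adjusted p 0.1). The adjusted p reached 0.055 to 0.056 without HFD DLP 3 or 4. Tnpo1 encodes transportin, an import receptor of the nuclear pore. In VP, Tnpo1 lay at 5.89, 6.13, 5.98, 6.22 and 6.20 on control arrays 1 to 5 and at 5.64, 5.67, 5.74, 5.79 and 5.70 on HFD arrays 1 to 5. In DLP it lay at 6.44, 6.66, 6.56, 6.52 and 6.54 on control arrays and at 6.40, 6.38, 6.33 and 6.38 on HFD arrays 1 to 4. No HFD array overlapped the control arrays of its lobe, with a small gap in DLP. Tnpo1 had an average difference of -0.27 (SE 0.049, 1.21-fold lower, adjusted p 0.042), and its other probe set had -0.049 (SE 0.081). This was the least stable call. It was lost without control VP 2 or 5, HFD VP 1, 2 or 5, control DLP 2, 3, 4 or 5, or any of the 4 HFD DLP arrays (adjusted p 0.053 to 0.13).

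Around these 2 genes the lists were read by counts. Of 20 tested cell cycle genes, 1 was called, 8 were lower at an unadjusted p under 0.05 and 0 were higher, and 16 were negative in both lobes. For all 11728 genes these counts were 598 lower, 793 higher and 2785 negative in both lobes. In VP the list's median was -0.44 (-0.29 without control VP 3), and in DLP it was -0.10 (-0.06 without control DLP 2 and -0.16 without HFD DLP 4). Mki67, the marker of cycling cells, had -0.91 in VP and -0.32 in DLP (average -0.62, SE 0.264, adjusted p 0.37), and Kif4, a mitotic kinesin, had -0.28 and -0.81 (average -0.54, SE 0.125, adjusted p 0.1). Only in control DLP did the mean of Kif4 exceed the array median of 1.85. It was 1.91 there, 1.10 in HFD DLP, 1.66 in control VP and 1.38 in HFD VP. The mean of Plk1 exceeded the array median only in control VP (1.99), against 1.46 in HFD VP. It was 1.77 in control DLP and 1.54 in HFD DLP. Kif4 and Plk1 are both among the 8. The count of 8 was 4 without control VP 2, control VP 3 or control DLP 2, and 5 without HFD VP 1 or HFD VP 5. It was also 5 without HFD VP 2 and HFD DLP 1 together. Of 24 tested genes of nuclear import and export, 1 was called, 5 were lower and 1 was higher at an unadjusted p under 0.05. The 5 became 3 without control DLP 2, control DLP 3, HFD DLP 1 or HFD DLP 3. Xpo5, the exporter of precursor miRNAs, had -0.20 (SE 0.06, adjusted p 0.19) and Ran, the GTPase that drives the transport, -0.17 (SE 0.058, adjusted p 0.25).

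Just outside the threshold stood Per2, a repressor of the circadian clock, and Fuca1, the lysosomal enzyme that removes fucose. The control VP arrays gave Per2 levels of 3.48, 3.41, 3.47, 3.27 and 3.57, and the HFD VP arrays 4.03, 3.58, 3.71, 3.90 and 3.79. The control DLP arrays gave 2.28, 2.08, 2.20, 2.03 and 1.95, and the HFD DLP arrays 2.99, 2.64, 2.34 and 2.42. Each HFD array was above each control array of its lobe. Per2 had an average difference of 0.43 (SE 0.082, 1.34-fold, adjusted p 0.054), with an exact permutation p of 3.1e-05, the smallest that 31752 regroupings allow. Its other probe sets had 0.24 and 0.13. On control VP arrays the level of Fuca1 was 6.57, 6.60, 6.64, 6.94 and 7.20, and on HFD VP arrays it was 6.49, 6.40, 6.30, 6.05 and 6.30. On control DLP arrays it was 6.73, 6.99, 7.12, 7.03 and 6.73, and on HFD DLP arrays 6.53, 6.65, 6.39 and 6.32. Here too the diets did not overlap in either lobe. Fuca1 had -0.47 (SE 0.086, 1.38-fold lower, adjusted p 0.052), and its 3 other probe sets had -0.38, -0.29 and -0.15. Without single arrays, Per2 kept an adjusted p of 0.05 to 0.1, whereas that of Fuca1 ran from 0.03 to 0.13.

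In the circadian clock list, differences went both ways. None of 19 tested genes was called. At an unadjusted p under 0.05, 7 were higher and 2 lower, against 793 higher and 598 lower of all 11728 genes. Hlf, a transcription factor of the clock's output, went from a mean of 2.11 to 2.62 in VP and from 3.21 to 3.58 in DLP (average 0.44, SE 0.099, adjusted p 0.092). Nfil3, the repressor that competes with Hlf for the D-box, went from 6.35 to 5.91 and from 3.94 to 3.50 (average -0.44, SE 0.104, adjusted p 0.11). Per3 had 0.41 (SE 0.1), Dbp 0.43 (SE 0.152), Ciart 0.34 (SE 0.099) and Tef 0.21 (SE 0.088). On the side of the activators, Npas2 had -0.39 (SE 0.096), Arntl, now called Bmal1, -0.19 (SE 0.125) and Clock -0.062 (SE 0.071). The mean of Npas2 exceeded the array median of 1.85 only in control VP (2.24), against 1.58 in HFD VP. It was 1.71 in control DLP and 1.59 in HFD DLP. No source used here states the time of day of sampling.

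**Figure D4:**
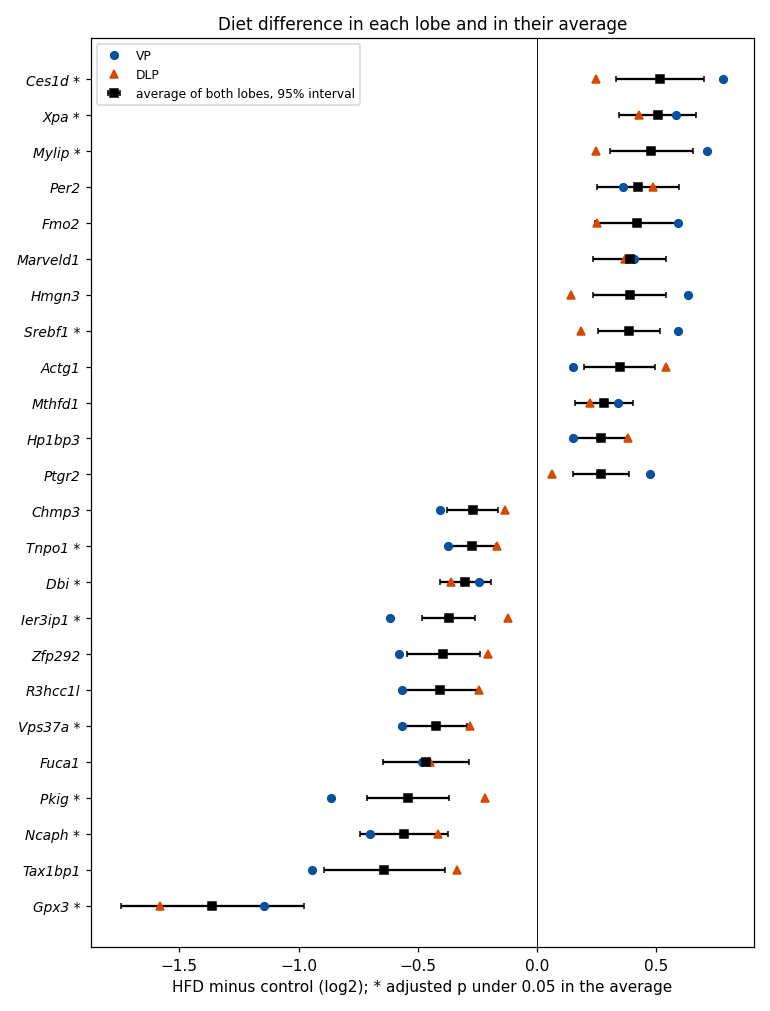
HFD minus control difference (log2) in VP (circles), in DLP (triangles) and in their average (squares, with 95% intervals) for the 11 called genes, marked by an asterisk, and for the 13 genes that fill each direction to 12 by the smallest p. The average intervals of all 24 exclude 0, Gpx3 reaches farthest at -1.36, and for most genes the VP point lies farther from 0 than the DLP point.

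The genes next in order of p had adjusted p between 0.052 and 0.077. On the higher side they were Hmgn3, a nucleosome-binding protein (0.39, SE 0.073), Marveld1 (0.39, SE 0.074), Per2, Hp1bp3, a chromatin protein (0.27, SE 0.052), Fmo2, a flavin monooxygenase (0.42, SE 0.086), Actg1, a cytoplasmic actin (0.35, SE 0.071), Mthfd1, a folate enzyme (0.28, SE 0.058), and Ptgr2, a prostaglandin reductase (0.27, SE 0.056). Fmo2 was positive on 4 of 4 tested probe sets, from 0.29 to 0.42. Ptgr2 had 4 other tested probe sets between -0.11 and 0.10. On the lower side they were Fuca1, Chmp3, a subunit of ESCRT-III (-0.27, SE 0.05), Zfp292 (-0.39, SE 0.073), Tax1bp1, a receptor of selective autophagy (-0.64, SE 0.122), and R3hcc1l (-0.41, SE 0.078). The other probe set of Chmp3 had -0.017.

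Markers of smooth muscle had positive median differences, without a call. Of the 12 tested, 8 were higher at an unadjusted p under 0.05 and 11 were positive in both lobes, with medians of 0.18 (VP) and 0.20 (DLP). Among all 11728 genes, 793 were higher, 598 were lower and 3469 were positive in both lobes. Tagln, an actin-binding protein of smooth muscle, had 0.23 (SE 0.053, adjusted p 0.11), Cnn1, calponin, 0.27 (SE 0.073, adjusted p 0.14) and Des, desmin, 0.44 (SE 0.125, adjusted p 0.17). Acta2 had 0.099 (SE 0.079). The mean of the 12, centred over all arrays, ran from -0.56 to -0.18 in control VP, -0.51 to -0.02 in HFD VP, 0.23 to 0.33 in control DLP and 0.43 to 0.53 in HFD DLP, so that the diets overlapped in VP and were apart in DLP. Of 8 fibroblast markers 1 was lower at an unadjusted p under 0.05, Col3a1, a fibrillar collagen (-0.50, SE 0.139, adjusted p 0.15). That count was 4 without HFD VP 3 and 2 without control VP 2, control VP 5 or control DLP 3. Luminal markers had 2 higher of 11, with Cldn4, a tight junction protein, at 0.32 (SE 0.075, adjusted p 0.11). Nerve markers (10 tested) had a median of -0.94 in DLP and 0.022 in VP, with 1 lower in the average, and their mean reached 2.73 on 1 control DLP array. The nerve count was 6 without control DLP 1 or control DLP 3 and 0 without control DLP 2 or control DLP 5, and the DLP median ran from -1.30 without control DLP 3 to -0.55 without control DLP 5. T cell and skeletal muscle markers had 1 higher of 2 and 1 higher of 5, the latter 0 in 9 of the 19 fits that leave out 1 array. The T cell gene was Cd3g, above the array median on only 4 arrays, control VP 4 and HFD VP 2, 3 and 4. It thus passed the filter mainly through HFD VP, the group where it was highest, and lay below the median on all DLP arrays. Basal, endothelial, macrophage, B and plasma cell, seminal vesicle and blood markers had none in either direction, and at most 1 in any fit without 1 array, except 2 lower macrophage markers without HFD VP 3. The part of these cell types in the called genes was not tested.

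The remaining lists held no called gene. Over all 11728 genes, 598 were lower and 793 were higher at an unadjusted p under 0.05. Of 23 tested genes of the unfolded protein response, 7 were lower at an unadjusted p under 0.05, led by Edem1, which extracts misfolded glycoproteins (-0.39, SE 0.099, adjusted p 0.12), and of 20 heat shock genes 4 were lower, led by Hsp90aa1 (-0.33, SE 0.072, adjusted p 0.089). With 1 array left out these counts ran from 5 to 9 and from 3 to 5.  Interferon response genes had medians of 0.58 (VP) and -0.015 (DLP), with 5 of 19 higher in the average and 2 without HFD VP 2 and HFD DLP 1, and the difference of the medians was not tested. The count of 5 was 3 without control VP 5, HFD VP 2, HFD VP 3, HFD VP 5, control DLP 4 or HFD DLP 3, and the VP median was 0.32 without control VP 5 and 0.30 without HFD VP 3. Among 21 genes of fatty acid oxidation and PPAR targets 2 were higher and 3 lower, and among 29 of oxidative phosphorylation 2 were higher and 1 lower. For insulin and IGF signalling the counts were 1 and 2 of 21. Inflammation and NF-kB had 1 higher of 18. The androgen receptor list (12 tested) and the immediate early genes (20 tested) had none in either direction. With 1 array left out, each of the counts for these last 6 lists stayed between 0 and 4.

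**Figure D5:**
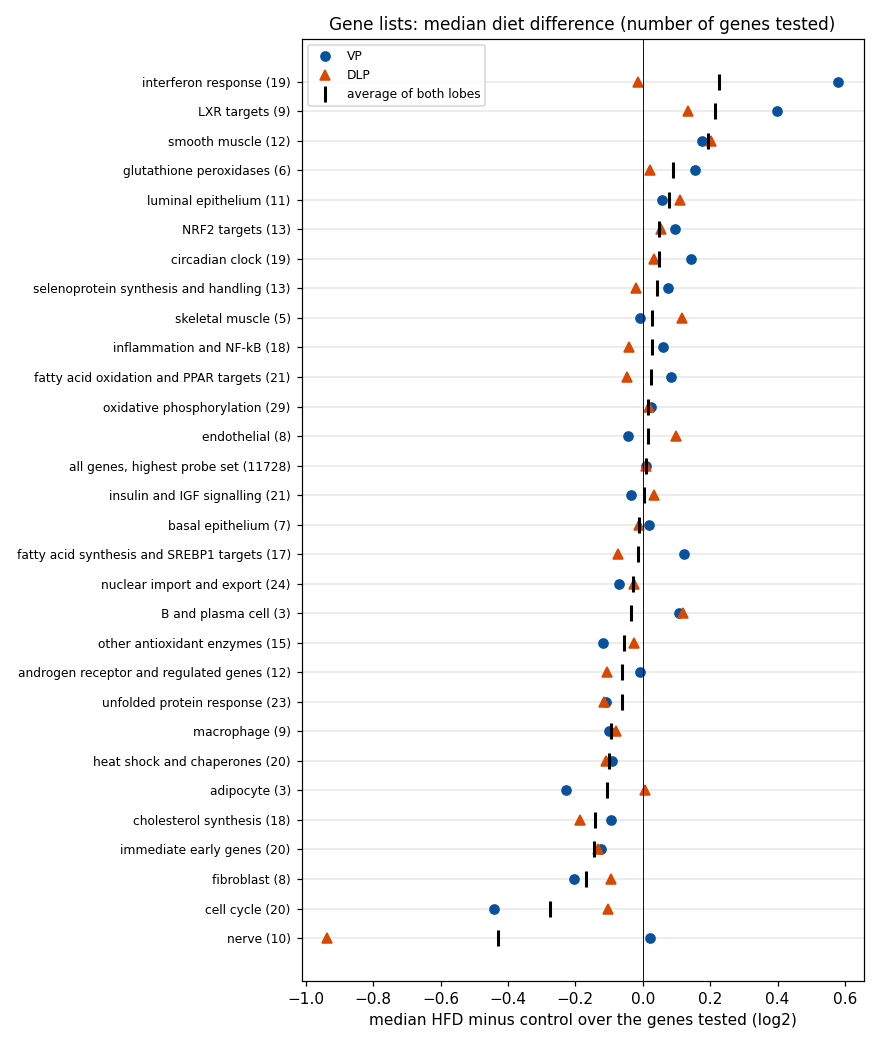
Median HFD minus control difference (log2) of each gene list with at least 3 tested genes, in VP (circles), in DLP (triangles) and in the average of both lobes (black marks), with the number of genes tested in brackets. LXR targets and smooth muscle markers lie above 0 in both lobes, and so do others such as NRF2 targets, luminal markers and the circadian clock. Cell cycle and cholesterol synthesis lie below 0 in both, as do others such as unfolded protein response, heat shock, immediate early genes and fibroblast markers. All 11728 genes lie at 0.01 in the average.

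Another reading, without adjustment, asks for a difference in each lobe by itself. An unadjusted p under 0.05 in VP and in DLP with the same sign was found for 156 probe sets of 135 genes, 0.627% of those tested, 89 higher and 67 lower. With opposite signs there were 64 (0.257%). This unadjusted threshold was met by 3595 probe sets in VP (14.5%) and by 1350 in DLP (5.43%). Whether the lobes coincided more often than these shares give was not tested. In VP the diets did not overlap for 603 probe sets (2.42%) and in DLP for 721 (2.9%). The diets did not overlap in either lobe and went the same way for 17 probe sets (0.0684%), 9 higher and 8 lower, and the opposite way for 6 (0.0241%). Of the 11 called genes, 3 were among the 17: Srebf1, Tnpo1 and Gpx3. Others of the 17 were Per2 and Fuca1, Wdr1, a promoter of actin disassembly (0.32, SE 0.084), Paqr5, a membrane progestin receptor (0.37, SE 0.088), Pdcd6ip, the ESCRT partner ALIX (-0.32, SE 0.063), and Lysmd3 (-0.45, SE 0.101), which were chosen from the 17 after their values were seen.

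Where the lobes differed was tested directly. The DLP difference minus the VP difference passed the adjusted threshold for 2 probe sets (0.00804%), with 2016 at an unadjusted p under 0.05 (8.11%). Ikbkg, the regulatory subunit of the kinase that activates NF-kB, had -0.53 in VP and 0.55 in DLP (adjusted p 0.03), with no overlap of the diets in either lobe. Akr7a5, an aldehyde reductase, had 0.70 in VP and -0.16 in DLP (adjusted p 0.03). Neither call was stable. With 1 array left out, Ikbkg lost it in 13 of 19 fits (adjusted p up to 0.14) and passed only without control VP 2, HFD VP 3, control DLP 1, 4 or 5, or HFD DLP 4. Akr7a5 lost it in 14 fits (up to 0.12) and passed only without control VP 2 or 3 or control DLP 1, 4 or 5. With the replicate number as a block, both had an adjusted p of 0.11. A further probe set of Akr7a5 had -0.039 in VP and 0.053 in DLP. Neither gene was among the 11, and none of the 11 had an adjusted p for this difference below 0.17. Its unadjusted p in limma was 0.00014 for Ier3ip1, 0.00088 for Pkig, 0.0035 for Srebf1, 0.0068 for Ces1d and 0.011 for Mylip. It was 0.033 for Vps37a and 0.048 for Tnpo1, and 0.12 or more for Ncaph, Gpx3, Dbi and Xpa. For all those under 0.05 the VP difference was the larger in size, as for Pkig (-0.86 in VP, -0.22 in DLP) and Ces1d (0.78 and 0.25).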

How the data were processed

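The deposited values were on a scale taken as log10 from the hybridisation controls, whose steps were 0.53, 0.74 and 0.96 against nominal 0.52, 0.7 and 0.6. Per the submitters' processing notes MAS5 was used. The log base, and the step that made all arrays share 1 distribution, are not given in the sources used here. Folds rest on that base.

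Values were converted to log2 without further normalisation. Of 45101 probe sets, 64 controls were left out. Of the 24867 tested, the platform annotation named 1 gene for 21108, several for 596 and none for 3163, and symbols were updated through RefSeq (GRCm38.p6) for 21064. limma 3.58.1 in R 4.3.3 fitted 4 group means (lmFit, eBayes with a mean-dependent prior) to all arrays, with two-sided Benjamini-Hochberg adjusted p at 0.05. Permutation tests were exact and two-sided. The fit was tested on simulated data.

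The members, the 19 pathway and 13 cell type lists and the tests were chosen with earlier results of these data known. Genes were named by rule: those called, filled to 12 per direction by p, Gpx3, list members that were called or had the smallest p, the 3 per direction smallest in both lobes, and calls of the lobe difference. Other list members were named after their values were seen. Each gene of a list was read from its probe set of highest mean. Correlations of same-numbered samples ran from -0.024 to 0.18 across lobes and from -0.129 to 0.397 across diets. Of 9 pairs across lobes 4 were above 0.1, as were 4 of 9 across diets. Whether same-numbered samples deviated together is thus not settled. The number of arrays limits the precision.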

Additional observations from a re-analysis of the deposited data

Results flagged for a closer look

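Single arrays stood apart from the rest of their group at 8 of 208 groups of 4 or 5 values over 52 named probe sets, where chance alone gives about 1 in 20. The seminal vesicle gene Svs5 was at 1.77 on control VP 3 (others 0.63 to 0.69) and at 3.67 on HFD DLP 1 (others 1.60 to 1.78). Jchain, of plasma cells, was at 4.39 on control DLP 1 (others 2.63 to 3.04). Ncaph, one of the called genes, was at 3.78 on HFD DLP 2 (others 3.44 to 3.48). Car3 was at 1.99 on HFD VP 5 (others 1.46 to 1.55), Prdx4 at 5.80 on HFD VP 3 (others 5.62 to 5.67) and Btg2, an immediate early gene, at 5.59 on HFD DLP 3 (others 4.72 to 4.82). Chmp3 was at 4.92 on control VP 2, below the others at 5.08 to 5.14.

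A pair of probe sets passed limma's test of the difference between the diet differences of the lobes. DLP minus VP was 1.08 for Ikbkg and -0.86 for Akr7a5, each at an adjusted p of 0.03. The calls were not stable: they were lost in 13 and 14 of 19 fits with 1 array left out, at adjusted p up to 0.14 and 0.12. They were also lost in the fit with the replicate number as a block (0.11 for both). The differences themselves moved less, from 0.998 to 1.178 for Ikbkg and from -0.921 to -0.793 for Akr7a5 with 1 array left out.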

How the results depend on the processing

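Against 11 calls in the average of both lobes, the count was 14 with 1 probe set per gene, 5 with the mean of a gene's probe sets, 10 without the filter, 35 with a filter at the 75th percentile, 12 with a pseudocount of 16, 8 without the trend, 17 with a robust prior, 74 with array weights, 28 with 1 weight per lobe, 61 with each lobe fitted alone, 4 with an additive model, 32 without control VP 4 and HFD VP 3, 71 at a threshold of 0.1 and 11 with cyclic loess. Chosen after seeing the data, leaving out probe sets marked as shared gave 9 and leaving out HFD VP 2 and HFD DLP 1 gave 7. With the replicate number as a block the count was 11, and 10 with diet and number taken as 1 mouse, at a block correlation of 0.05. Of the 52 named values the average of Ikbkg, near 0 at 0.009 and not called, changed sign. It was -0.005 with the mean of probe sets, -0.023 with the additive model, -0.005 without control VP 4 and HFD VP 3, -0.025 without HFD VP 2 and HFD DLP 1, and -0.033 to 0.057 with 1 array left out. Gpx3 passed in all 17 other settings (adjusted p 0.00032 to 0.025). The 156 probe sets with p under 0.05 in both lobes became 95 with 1 probe set per gene, 100 with the mean of probe sets and 247 with array weights. The 2 calls of the lobe difference became 1 with 1 probe set per gene, the 75th percentile filter, 1 weight per lobe, cyclic loess or without shared probe sets. They became 0 with the mean of probe sets, the replicate number as a block, without control VP 4 and HFD VP 3, or without HFD VP 2 and HFD DLP 1. Leaving out 1 array gave 2 to 22 calls, a sign agreement of 52.7% to 54.1%, 109 to 181 probe sets in both lobes and 0 to 4 calls of the lobe difference. The causes were not tested. Low probe sets lie near background, and the files used here hold no measure of it.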

Other observations

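A probe set outside the calls had an average difference larger in size than that of any called one. Wfdc3, a secreted protein with whey acidic protein domains, had -1.68 (SE 0.404, limma's adjusted p 0.11), with -1.93 in VP and -1.43 in DLP, and was picked out after its values were seen. Its levels were 9.05, 9.07, 9.24, 9.16 and 10.10 on control VP arrays against 8.65, 7.77, 8.02, 4.47 and 8.05 on HFD VP arrays. In DLP they were 9.32, 9.75, 9.79, 10 and 9.13 on control arrays against 8.41, 9.46, 7.66 and 7.14 on HFD arrays. HFD VP 4 lay far below the other arrays, and the diets overlapped in DLP through HFD DLP 2. Retnla, a secreted resistin-like protein, had -1.05 (SE 0.364, adjusted p 0.26), and Ceacam10, an adhesion molecule, had 0.31 in VP and 1.34 in DLP on one probe set (adjusted p 0.23 in the average).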
